A study of Mus musculus with 10 samples.

Results

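The cytosolic ribosome is built from a small and a large subunit, each an assembly of ribosomal RNA and many small proteins. The genes of the small-subunit proteins are named Rps and those of the large-subunit proteins Rpl. The cytosolic ribosomal protein genes were taken as every gene whose symbol begins Rpl or Rps followed by a number, together with Rplp0, Rplp1, Rplp2 and Rpsa. Ribosomal S6 kinases (Rps6k) and pseudogenes were left out, and a probe set had to carry that symbol alone in the platform table. This gave 48 genes on 100 probe sets, out of 12393 genes on 20380 probe sets with 1 symbol, and 47 of the 48 passed the signal filter. Rpl3l, a paralogue of Rpl3 best known from striated muscle, was the gene that did not, with signals of 1.66 to 13.3 on the 10 arrays.

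RNA of mouse dendritic cells, derived from marrow in culture, was measured on Affymetrix arrays (1 colour), and each of the 10 conditions has 1 array. The mice were C57BL/6, 6 to 8 weeks old, either wild type (5 arrays) or Cd14-/- (5 arrays); CD14 is a surface protein that binds LPS and hands it to its receptor. Marrow was cultured for 7 to 10 days with supernatant of B16 tumour cells that secrete GM-CSF, and cultures were used when over 90% of the cells carried CD11c. For either genotype, an untreated culture was taken 24 h after plating, and others were given smooth LPS at 1 µg/ml for 48 h or 60 h. A further pair received the same LPS with 50 nM thapsigargin, a blocker of the calcium pump of the endoplasmic reticulum that raises cytosolic calcium, for 48 h and 60 h. Unstimulated and stimulated arrays differ in harvest time as well as in LPS, and these cannot be told apart. The cells were not purified after culture, so fewer cells of a type and less RNA per cell cannot be told apart either.

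Cd14 had a signal of 1499 on the wild-type unstimulated array and 15538 to 17729 on the other wild-type arrays, against 1.85 to 7.35 on the Cd14-/- arrays. Of the dendritic cell markers, 13 of 13 passed the signal filter, and their summed signal ran from 36319 to 49451 on the wild-type and from 41652 to 67098 on the Cd14-/- arrays. Macrophage markers (8 of 8 tested) summed to 30232 and 35404 on the unstimulated arrays, 8084 on the Cd14-/- LPS 48 h array and 10005 to 22099 elsewhere. Neutrophil markers (4 of 7 tested) summed to 8860 and 10614 without LPS and to 665 to 2264 with it. B cell markers (1 of 3 tested) summed to 506 on the Cd14-/- LPS 48 h array and 58.5 to 221 elsewhere, and T and NK cell markers (0 of 5 tested) to at most 130.
The wild-type LPS 60 h array and the Cd14-/- LPS 48 h array stood apart in RNA controls. Their 3 probe sets for 18S ribosomal RNA read 114 to 685, against 1426 to 12656 on the other 8 arrays. They came from 19 and 15 µg of labelled cRNA, the lowest amounts of the series. These arrays enter every LPS comparison here, and their part in the results was not tested beyond leaving them out.

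Ribosomal protein mRNAs are among the most abundant in growing cells, and many of them start with a terminal oligopyrimidine (TOP) tract, a C followed by a run of pyrimidines. Through this tract their translation, more than their transcription, is tied to nutrient and growth signals through the kinase mTOR. Their products are made in matched amounts because unassembled ribosomal proteins are degraded. Dendritic cells that mature under LPS stop dividing and first raise, then lower, protein synthesis.

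Promoters were found in the RefSeq promoter table (GRCm38.p6) for 42 of the 48 genes, as 50 entries that each run from 250 bases before to 50 after the start. Rps4l, Rpl7, Rps29, Rps14, Rpl8 and Rps20 had no entry matched. A TOP-like start, a C followed by at least 4 pyrimidines beginning within 5 bases of the annotated start, stood in 21 of the 50 entries (42%), against 18.3% of all 32851 entries. The word CCGGAAG, on either strand, stood in 42% of them against 8.86% of all, the word AAGATGGC in 8% against 2.75%, and TATAAA in 12% against 13.6% (both strands searched for each). The first and second of these words can share the letters AAG where they adjoin. The starts of the 5 genes that passed a test in any comparison below, and of Rpl27a, which had the longest pyrimidine run, show both kinds. Each line runs from 35 bases before to the first 15 bases of the transcript, 5′ to 3′ on the gene's strand, with the pyrimidine run in capitals.
Rps6, minus strand, chr4:86857353-86857402: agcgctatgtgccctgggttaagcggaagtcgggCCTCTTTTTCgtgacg
Rpl14, plus strand, chr9:120571482-120571531: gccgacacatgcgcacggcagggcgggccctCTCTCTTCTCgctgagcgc
Rps27, minus strand, chr3:90213634-90213683: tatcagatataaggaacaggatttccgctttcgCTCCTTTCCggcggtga
Rpl27a, plus strand, chr7:109519160-109519209: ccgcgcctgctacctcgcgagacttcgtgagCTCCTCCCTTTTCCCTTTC
Rpl10a, plus strand, chr17:28328436-28328485: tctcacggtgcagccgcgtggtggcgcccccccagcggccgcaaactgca
Rpl10a, second start, plus strand, chr17:28328530-28328579: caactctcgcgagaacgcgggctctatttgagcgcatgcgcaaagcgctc
Rpl22, plus strand, chr4:152325691-152325740: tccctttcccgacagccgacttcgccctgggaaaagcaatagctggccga
Rpl22, upstream start, plus strand, chr4:152324401-152324450: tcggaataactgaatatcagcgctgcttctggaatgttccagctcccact
Rps6, Rpl14 and Rps27 have runs of 10, 10 and 9 bases within these windows and Rpl27a one of 20, whereas the windows of Rpl10a and Rpl22 hold none by this rule. The rule rests on annotated starts, and whether transcripts of genes without such a run start at another base was not tested. In wild-type cells under LPS the median log2 change was -0.19 over 20 genes with a TOP-like start and -0.31 over 21 without. For Cd14-/- cells the medians were -0.01 and 0.01.

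Values are MAS5 signals scaled to a common trimmed mean, and a change is a difference of log2 signals, so that -1 is a halving. MAS5 signals of different probe sets are not on a common scale per molecule, and levels are therefore compared only within a gene. With no condition repeated, the errors given after ± (standard errors from the linear model) rest on the departure of 48 h and 60 h arrays from a common time shift, so the spread from culture to culture or mouse to mouse is outside the p-values.

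In wild-type cells, LPS came with slightly lower signals across the set: 46 of the 47 genes had a negative log2 change, with a median of -0.23, against a median of -0.03 over all 7474 genes tested. For 43 of 47 genes both LPS arrays lay below the unstimulated array, where 42.1% of all genes did so, and for 1 gene, Rps27, both lay above, against 39.9% of all genes. The decrease was small for most: the middle of the set was 0.27 lower at 48 h and 0.20 lower at 60 h, with 5 of 47 genes at least 2-fold lower at 48 h and 3 at 60 h, beside 1227 and 924 of all 7474 genes. The genes that fell by the test were Rps6, Rpl14 and Rpl10a, which is 3 of 47 beside 8.24% of all genes called lower, and 0 rose beside 7.69% called higher. The direction was the same without scaling (median -0.31, 46 of 47 negative) and under quantile normalization (-0.24, 39 of 47).

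**Figure D1:**
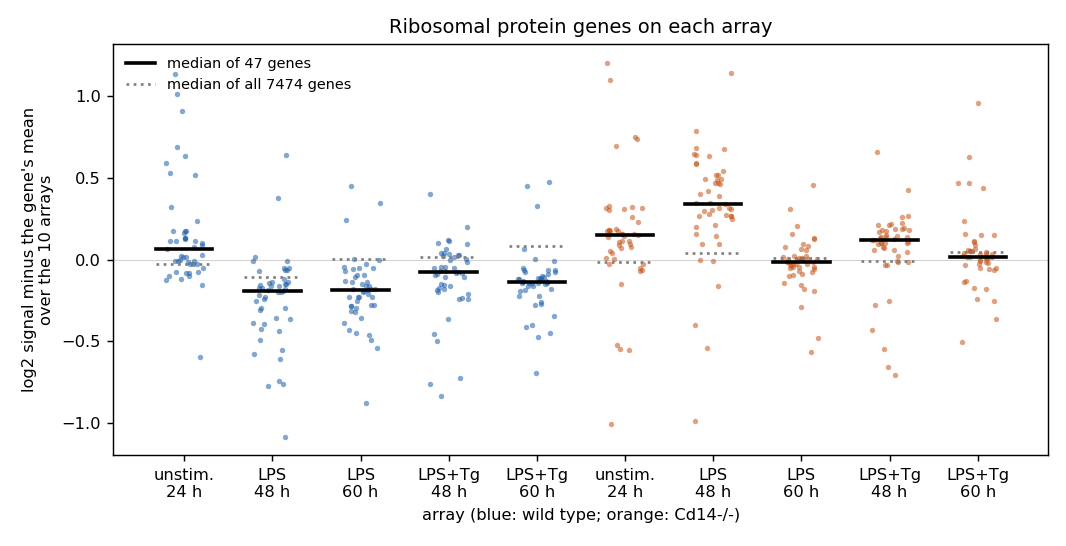
Each point is 1 of the 47 ribosomal protein genes on 1 array, as its log2 signal minus that gene's mean over the 10 arrays; black bars are the medians of the set and dotted bars those of all 7474 genes. The Cd14-/- LPS 48 h array has the highest median, 0.34, and the wild-type LPS 48 h array the lowest, -0.19.

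Rps6 encodes the small-subunit protein that S6 kinases phosphorylate when mTOR is active. Its signal was 858 on the wild-type unstimulated array, 255 and 267 with LPS at 48 h and 60 h, and 229 and 281 with LPS plus thapsigargin. The Cd14-/- arrays read 834 without LPS, 608 and 483 with LPS, and 289 and 303 with LPS plus thapsigargin. All 8 stimulated arrays lay below both unstimulated ones, and the Cd14-/- LPS arrays lay between the unstimulated arrays and the rest. The log2 change under LPS was -1.72 ± 0.27 in wild-type cells (limma, adjusted p = 0.0132) and -0.62 ± 0.27 in Cd14-/- cells, which did not pass.

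Rpl14, a large-subunit protein, read 238 on the wild-type unstimulated array, 69.4 and 86.2 with LPS, and 71.0 and 89.0 with LPS plus thapsigargin. The Cd14-/- signals were 271 without LPS, 188 and 131 with LPS, and 80.5 and 104 with LPS plus thapsigargin. As for Rps6, the Cd14-/- LPS arrays lay between the unstimulated arrays and the other stimulated ones. The log2 change under LPS was -1.62 ± 0.38 in wild-type cells (limma, adjusted p = 0.0409). Rpl10a, whose protein lies near the ribosome's exit site for used tRNA, read 8031 without LPS in wild-type cells, 3525 and 4260 with LPS, and 4031 and 3791 with LPS plus thapsigargin. On the Cd14-/- arrays it read 8645, then 7174 and 5475, then 4270 and 5251. Both wild-type LPS arrays lay below the unstimulated one, where 42.1% of all genes did so. The log2 change under LPS was -1.05 ± 0.25 (limma, adjusted p = 0.0422). Next in order by adjusted p (limma), and not past the threshold, were Rps25 (-1.10, adjusted p = 0.0535), Rps18 (-0.85, 0.0691) and Rpl12 (-1.11, 0.0782). Rps25 and Rpl12 also have brighter probe sets that carry other symbols too. These changed less, by -0.37 for Rps25 and by -0.53 and -0.60 for Rpl12, and 0 passed.

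The calls for Rps6 and Rpl14 belong to single probe sets, and other probe sets for these genes moved less. Rps6 has 8 further probe sets that carry Rps6 together with other symbols, and their changes under LPS in wild-type cells ran from -0.54 to 0.32, with 0 of 8 passing (lowest adjusted p = 0.126). On the brightest of them the Rps6 signal was 13957 without LPS, 11825 and 12161 with LPS, and 15440 and 12985 with LPS plus thapsigargin. The second single-symbol probe set of Rps6 read only 9.33 to 44.1, and with the mean of both the change was -0.74 (limma, adjusted p = 0.16). For Rpl14, 5 such probe sets changed by between -0.49 and -1.002, with 0 of 5 passing. Rpl10a has 1 probe set on the array.
The 3 calls also depended on which arrays were in the fit: 0 of the 47 genes passed without the wild-type LPS 48 h, the wild-type LPS 60 h, or either Cd14-/- LPS plus thapsigargin array, where 170 to 399 of all 7474 genes did. Without the wild-type LPS plus thapsigargin array of 48 h or of 60 h, 1 passed, beside 397 and 392 of all genes. Without the Cd14-/- LPS 48 h or 60 h array 17 passed, all lower, beside 3271 and 3281 of all 7474 genes. Without both arrays low in 18S signal 25 passed, all lower, beside 3744 of all genes, in a fit chosen after seeing the data.

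The proteins of the P stalk, which recruits translation factors to the large subunit, changed little. Rplp0 read 14506 on the wild-type unstimulated array and 14279, 14085, 14970 and 14364 on the other 4, and in Cd14-/- cells 15079, then 16579, 14108, 16534 and 15950. Its range over the 10 arrays was 0.24 on the log2 scale, and its change under LPS in wild-type cells was -0.03 ± 0.14. Rplp2 changed by -0.17 ± 0.14 in the same comparison. Rpsa, a small-subunit protein also known as the laminin receptor, read 11333 without LPS in wild-type cells and 7663 and 7676 with it, but 12389, 16088 and 9711 in Cd14-/- cells. Its wild-type change of -0.56 ± 0.24 did not pass (limma, adjusted p = 0.157).
The remaining genes with a named role also had changes that did not pass in wild-type cells. Rps3, which lines the mRNA entry site, changed by -0.35 ± 0.16, and Rps19, mutated in Diamond-Blackfan anaemia, by -0.47 ± 0.25. Rpl11, which binds Mdm2 when ribosome assembly is disturbed, changed by -0.31 ± 0.23. Rps4x changed by -0.20 ± 0.18, Rpl13a, linked to silencing of inflammatory mRNAs after interferon, by -0.00 ± 0.16, and Rps14 by -0.04 ± 0.15. The Rpl13a value is that of its brightest single-symbol probe set. Its other single-symbol probe sets changed by -0.09, -0.69 and -1.10, and 2 with other symbols by -0.14 and 1.18.

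Bright probe sets had smaller changes under LPS in wild-type cells, in the set as over all other genes. There the median log2 change under LPS was -0.56 over the 11 genes with a mean signal under 2000, -0.36 over the 8 between 2000 and 8000, and -0.18 over the 28 above 8000. Over all other genes of those classes the median size of the change, whatever its sign, was 0.55, 0.44 and 0.21, against 0.56, 0.36 and 0.18 in the set. The genotype difference under LPS did not have this order in the set, with medians of 0.29, 0.53 and 0.32. Of the 28 brightest, 28 were lower under LPS in wild-type cells, where 47.8% of 115 other genes of that brightness were. The highest value in the whole deposited table was 20855, and whether the brightest probe sets approach a ceiling was not tested. Among the 3 highest mean signals, Rps29, Rpl38 and Rplp0, the log2 changes were -0.01, -0.35 and -0.03, and among the 3 lowest tested, Rps4l, Rpl14 and Rpl12, they were -0.56, -1.62 and -1.11.

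In Cd14-/- cells the LPS arrays did not move together. The 48 h array was higher than the unstimulated one for 36 of 47 genes, by a median of 0.17, and the 60 h array was lower for 38, by a median of -0.14. Averaged over both, 25 genes had a positive and 22 a negative change, with a median of 0.01 (0.14 and 37 positive on unscaled signals, where all genes had a median of 0.16, and -0.01 and 23 positive after quantile normalization). Of the 47, 0 passed in limma (3 had an unadjusted p under 0.05), beside 2.17% of all genes called higher and 2.01% lower. Both LPS arrays lay above the unstimulated one for 8 genes (37.2% of all genes) and below it for 10 (33.5%). Without the Cd14-/- LPS 48 h array 5 genes passed, 4 of them lower, beside 1190 of all 7474 genes, and without the 60 h array 11 passed, 9 of them higher, beside 2883 of all genes.

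Rpl22, an RNA-binding large-subunit protein whose loss blocks early T cell development, was the nearest to passing. Its signal was 5024 on the Cd14-/- unstimulated array, 10105 and 8023 with LPS, and 8772 and 8632 with LPS plus thapsigargin. In wild-type cells it read 7190, then 6746 and 7189, then 6188 and 6743. The Cd14-/- unstimulated array was thus the lowest of the 10, and the other 9 lay between 6188 and 10105. The change under LPS was 0.84 ± 0.19 in Cd14-/- cells (limma, adjusted p = 0.0702) and -0.05 ± 0.19 in wild-type cells. A second Rpl22 probe set read 488 without LPS and 362 and 146 with it in wild-type cells, and changed by -0.33 under LPS in Cd14-/- cells, the opposite direction. Its paralogue Rpl22l1 changed by -0.24 ± 0.40 in wild-type and -0.22 ± 0.40 in Cd14-/- cells.

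**Figure D2:**
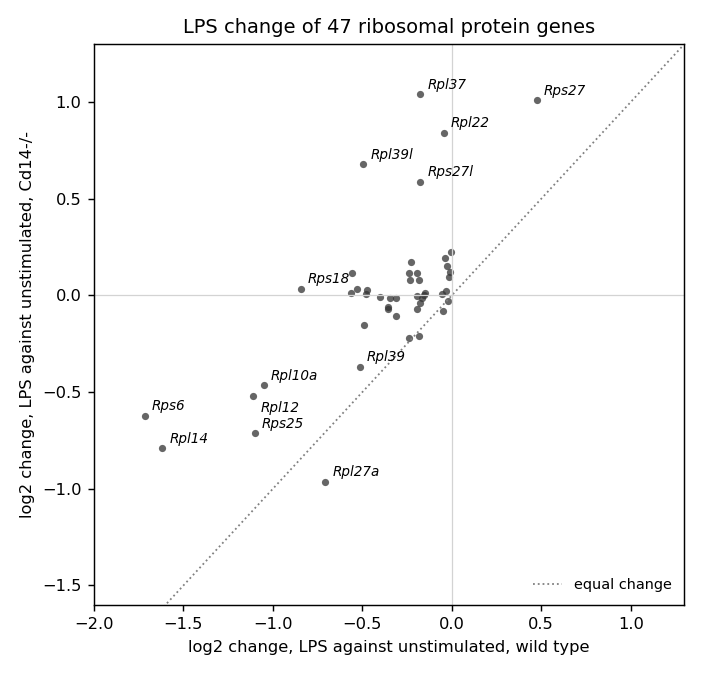
Each point is 1 of the 47 genes, with its log2 change under LPS (mean of 48 h and 60 h arrays against the unstimulated one) in wild-type cells on the x axis and in Cd14-/- cells on the y axis; the dotted line marks equal change. Rps6 lies at -1.72 and -0.62, Rpl10a at -1.05 and -0.46, and most genes lie above the line.

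With LPS, ribosomal protein signals were higher in Cd14-/- than in wild-type cells for 42 of 47 genes, by a median of 0.33, against 0.08 over all genes. Both Cd14-/- LPS arrays lay above both wild-type ones for 34 of 47 genes, where 27.5% of all genes did so, and below them for 1, Rpl39, where 20.8% did. None of the 47 passed in limma (26 had an unadjusted p under 0.05), beside 2.57% of all genes called higher and 2.61% lower. Rps6 differed by 1.05 ± 0.22 (adjusted p = 0.0526), Rps18 by 0.87 ± 0.20 (0.0665), Rpl6 by 0.65 ± 0.15 (0.0664) and Rpsa by 0.70 ± 0.19 (0.0863). The 8 Rps6 probe sets with other symbols differed by between -0.02 and 0.56, and by 0.31 on the brightest, with 0 passing. Rps18, a protein of the small subunit's head, read 5913 and 6402 with LPS in wild-type cells against 13724 and 9192 in Cd14-/- cells, with 11054 and 10966 on the unstimulated arrays. The test of a different LPS response between genotypes gave a positive value for 43 of 47 genes, with a median of 0.30, and 0 passed in limma (3 with an unadjusted p under 0.05), as 0% of all genes passed in either direction. Without the Cd14-/- LPS 60 h array 16 passed, all higher, beside 1367 of all 7474 genes; without any other single stimulated array 0 passed.

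The genotype difference was larger at 48 h than at 60 h. The Cd14-/- LPS 48 h array was the highest of the 10 arrays for 33 of 47 genes, as it was for 21% of all genes, and the wild-type LPS 48 h array was the lowest for 21. In the 48 h pair the Cd14-/- array was higher for 44 of 47 genes, by a median of 0.56, and in the 60 h pair for 38, by a median of 0.17. Without the Cd14-/- LPS 60 h array 38 genes passed, 37 higher and 1 lower; of all 7474 genes 3309 passed there. Without the Cd14-/- LPS 48 h array 4 passed, all higher, at a median difference of 0.22, beside 1328 of all genes. Without both arrays low in 18S signal 11 passed, all higher, at a median of 0.29, beside 1682 of all genes (chosen after seeing the data). On the Cd14-/- LPS 48 h array the macrophage markers summed to 8084, against 18701 on the Cd14-/- LPS 60 h array, the B cell markers to 506 against 221, and the dendritic cell markers to 67098 against 46855. Such a sum weighs its brightest genes most, and not every dendritic cell marker went with it. Ccr7 read 16168 against 7190 on these 2 arrays, whereas Itgax read 892 against 6941. The part of these markers in the ribosomal protein difference was not tested.

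Small genotype differences in the same direction stood in the other pairs too. Among unstimulated cells, Cd14-/- signals were higher for 34 of 47 genes by a median of 0.08; this one turned to -0.10, with 8 of 47 higher, on unscaled signals, where all genes shifted by -0.16. With LPS plus thapsigargin they were higher for 43 of 47 genes at 48 h and 40 at 60 h, by medians of 0.18 and 0.18, where the medians of all genes were -0.02 and -0.03. Of the 47 genes, 25 were higher in Cd14-/- cells in all 5 matched pairs, where 8.26% of all genes were, and 1, Rpl39, was lower in all 5, where 7.25% were; on unscaled signals 5 were higher in all 5 pairs (4.85% of all genes) and after quantile normalization 19 (7.79%). In a limma fit with the pair as a block, chosen after seeing the data, the median difference was 0.24, 44 of 47 genes were positive and 0 passed (21 unadjusted), beside 0.0268% of all genes called higher and 0.0803% lower. Both Cd14-/- arrays with LPS plus thapsigargin lay above both wild-type ones for 29 genes (18.7% of all genes) and below for 2 (23%). None of these differences passed in limma: 0 of 47 for unstimulated cells (1 at an unadjusted p under 0.05, with 0% of all genes called higher and 0.0134% lower) and 0 of 47 with LPS plus thapsigargin (2 unadjusted, 0% higher and 0.0268% lower).

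**Figure D3:**
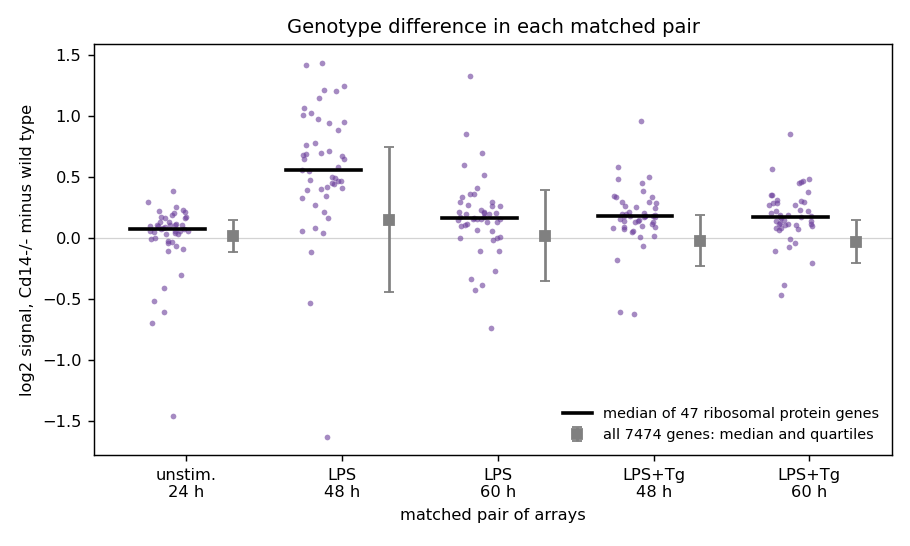
Each purple point is 1 of the 47 genes in 1 pair of arrays of the same treatment and time, as log2 signal in Cd14-/- minus wild-type cells; black bars are medians of the set and grey squares with bars the median and quartiles of all 7474 genes. The set's medians are 0.08, 0.56, 0.17, 0.18 and 0.18 from left to right.

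The share of all scaled signal that fell on the 100 member probe sets showed the same order. In wild-type cells it was 5.02% without LPS, 4.21% and 4.36% with LPS at 48 h and 60 h, and 4.57% and 4.43% with LPS plus thapsigargin. With the Cd14-/- genotype it was 5.17% without LPS, 6.14% and 4.80% with LPS, and 5.17% and 5.07% with LPS plus thapsigargin. All 4 stimulated wild-type arrays lay below every Cd14-/- array. The 102 probe sets that carry a ribosomal protein symbol beside other symbols, and are outside the set, held 4.78%, 3.91%, 4.11%, 4.44% and 4.27% in wild-type cells. These shares are of the signal of all probe sets but the controls, a different total from that of the member shares. The Cd14-/- shares were 4.99%, 5.87%, 4.61%, 4.97% and 4.85%, in the same order of conditions.

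**Figure D4:**
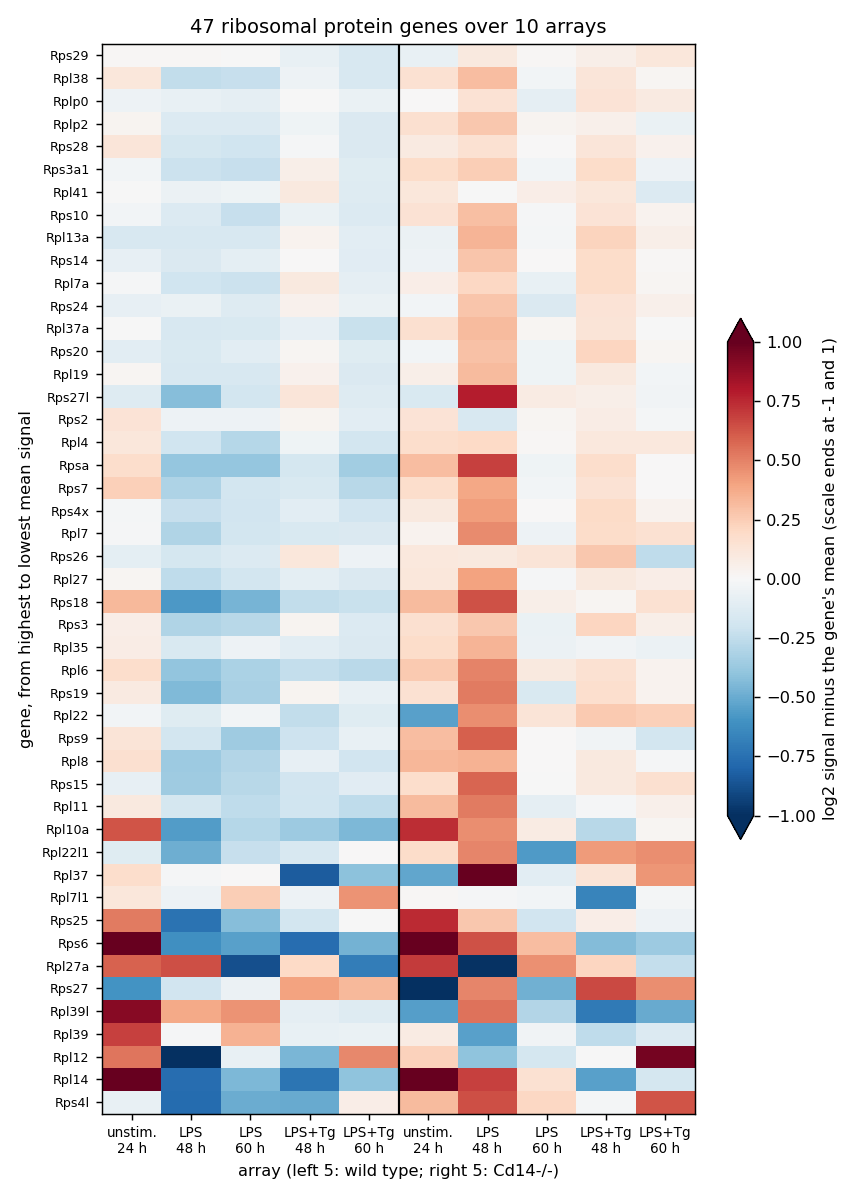
Rows are the 47 genes from highest to lowest mean signal and columns the 10 arrays, wild type on the left; colour is the log2 signal minus the gene's mean, cut at -1 and 1. Most rows are blue on the 2 wild-type LPS arrays and red on the Cd14-/- LPS 48 h array, and the rows at the bottom, from Rpl37 down, each span at least 1.11 on the log2 scale.

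Thapsigargin added to LPS moved the set little. In wild-type cells the median log2 difference was 0.10, with 38 of 47 genes positive, against 0.11 over all genes. None passed in limma, and 0 had an unadjusted p under 0.05, where 0.0134% of all genes were called higher and 0.0401% lower. Both thapsigargin arrays lay above both LPS arrays for 23 genes (31.8% of all genes) and below for 5 (15.1%). For the Cd14-/- genotype the median was -0.08, with 35 of 47 negative, against -0.00 over all genes, and 0 passed in limma (3 unadjusted), beside 3.43% of all genes called higher and 3.2% lower. Both thapsigargin arrays lay above both LPS arrays for 1 gene (26.9% of all genes) and below for 6 (26.1%). Here too the times differed: the thapsigargin array was lower by a median of -0.20 at 48 h and higher by 0.04 at 60 h. Rps6 was the nearest to passing, at -0.87 ± 0.22 (limma, adjusted p = 0.0684). That value too belongs to the dim member probe set: the Rps6 probe sets with other symbols changed by between -0.21 and 0.01. The brightest of them changed by -0.05. Without the Cd14-/- LPS 60 h array 18 genes passed, 17 of them lower, beside 2894 of all 7474 genes. Without the 48 h array 3 passed, all higher, with the median at 0.06, beside 2150 of all genes. Without both arrays low in 18S signal 6 passed, 4 of them higher, with the median at 0.05, beside 3252 of all genes (chosen after seeing the data). The difference of the thapsigargin response between genotypes passed for 0 of 47 genes in limma (1 unadjusted), with 0% of all genes called in either direction. Its count was 15 without the Cd14-/- LPS 60 h array and 1 without the 48 h array, beside 1899 and 381 of all 7474 genes.

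Against unstimulated cells, LPS plus thapsigargin gave 3 genes lower in wild-type cells, beside 9.51% of all genes, and 0 higher beside 11.6%. They were Rps6 (-1.76 ± 0.27, limma, adjusted p = 0.0109), Rpl14 (-1.58 ± 0.38, 0.0361) and Rpl10a (-1.04 ± 0.25, 0.0361), the 3 genes called under LPS alone against the same unstimulated array. Among Cd14-/- arrays 2 genes fell, beside 10.4% of all genes: Rps6 by -1.50 ± 0.27 (limma, adjusted p = 0.0158) and Rpl14 by -1.57 ± 0.38 (0.0365). Another 2 rose, beside 11% of all genes: Rps27 by 1.57 ± 0.37 (limma, adjusted p = 0.0342) and Rpl22 by 0.79 ± 0.19 (0.0351). The second Rpl22 probe set went the other way: on Cd14-/- arrays it read 492 unstimulated and 405 and 302 with LPS plus thapsigargin. For Rps6, the brightest probe set with other symbols read 14921 on the Cd14-/- unstimulated array and 15682 and 13216 with LPS plus thapsigargin. Both wild-type arrays with LPS plus thapsigargin lay below the unstimulated one for 32 of 47 genes (40.2% of all genes) and above it for 4 (47.6%), and in Cd14-/- cells for 25 (42.2%) and 12 (46.1%). All 4 stimulated arrays lay below the unstimulated one for 31 genes in wild-type (33.5% of all genes) and 9 in Cd14-/- cells (25.6%). As for the LPS calls, leaving out single stimulated arrays gave between 0 and 14 genes in wild-type cells and between 0 and 9 in Cd14-/- cells. The count of 0 came without either thapsigargin array of that genotype, and in Cd14-/- cells also without the wild-type LPS plus thapsigargin 60 h array; the highest came without the Cd14-/- LPS 48 h or 60 h array, where 3620 and 3627 of all 7474 genes passed in wild-type cells and 3754 and 3752 in Cd14-/- cells. Without the wild-type LPS 48 h, the wild-type LPS 60 h or the wild-type LPS plus thapsigargin 48 h array the Cd14-/- count was 1, 2 and 1, and in wild-type cells it was 1 without either wild-type LPS or either Cd14-/- thapsigargin array.

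Rps27, a zinc-finger protein of the small subunit, was the only one of the 47 with a positive change under LPS in wild-type cells, and one of 25 in Cd14-/- cells. Its signal was 185 on the wild-type unstimulated array, 246 and 269 with LPS, and 371 and 352 with LPS plus thapsigargin. The Cd14-/- signals were 139, then 393 and 201, then 444 and 388. All 8 stimulated arrays lay above both unstimulated ones, and the 4 thapsigargin arrays lay above 3 of the 4 LPS arrays. A bright probe set shared by Rps27 and its retrogene read 6389 on the wild-type unstimulated array, 7031 and 8859 with LPS, and 9233 and 8982 with LPS plus thapsigargin. On Cd14-/- arrays that probe set read 7313, then 13139 and 8207, then 10713 and 10675, so its stimulated arrays were also the higher ones, except that the wild-type LPS 48 h array lay below the Cd14-/- unstimulated one. Rps27l, the paralogue known as a p53 target, read 10214, 8298, 9818, 12119 and 10189 in wild-type and 10024, 19195, 11811, 11601 and 10905 in Cd14-/- cells, in the same order of conditions. Its highest array stood apart from the other 9, and its changes did not pass in any comparison.

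**Figure D5:**
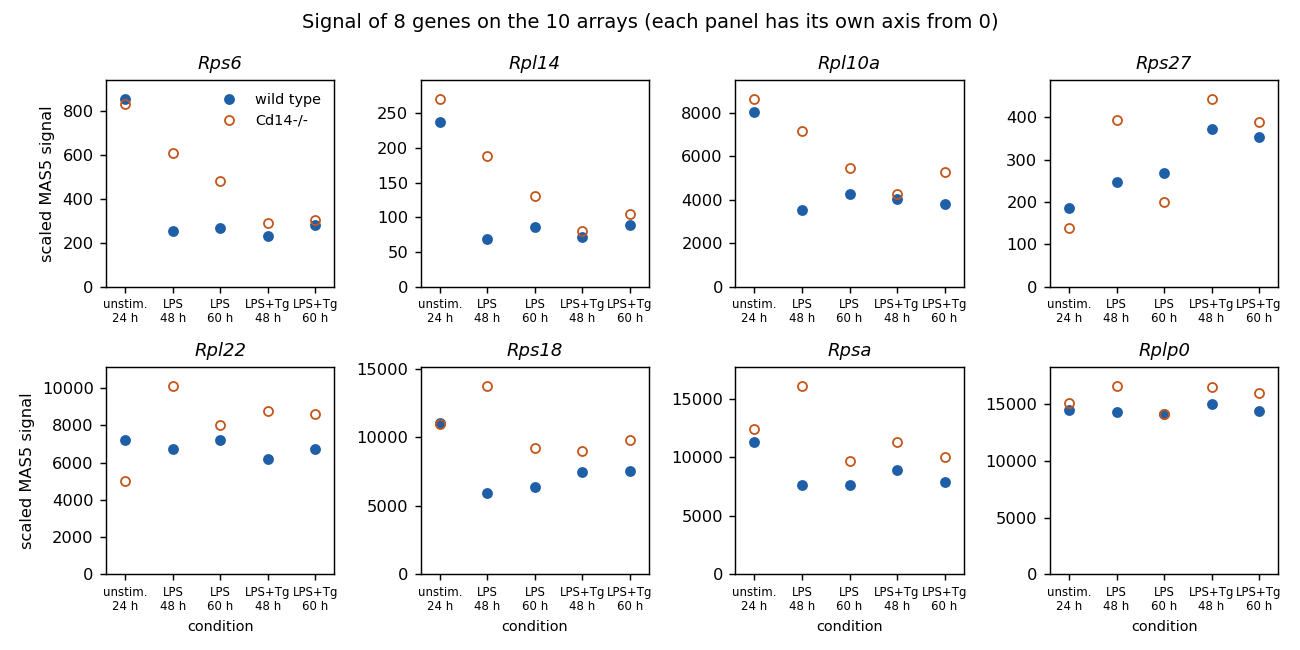
Each panel plots the scaled MAS5 signal of 1 gene (y axis from 0) over the 5 conditions, with filled blue points for wild-type and open orange points for Cd14-/- arrays, 1 array a point. Rps6 drops from 858 and 834 without LPS to at most 608 with it, Rps27 climbs from 185 and 139 to at least 201, and Rplp0 stays between 14085 and 16579.

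Other genes also departed from the set's pattern, among them 2 with high signals, named after their values were seen. Rps2, a small-subunit protein at the mRNA entry site, read 9582 on the Cd14-/- LPS 48 h array, its lowest, and 9985 to 11795 on the other 9. That departure belongs to the member probe set. A brighter probe set with Rps2 and other symbols read 13219 on the same array and was lowest on the wild-type LPS 48 h array, at 11777. The 2 Rps2 probe sets with other symbols were higher by 0.12 and 0.13 in Cd14-/- than in wild-type cells under LPS. Rps2 correlated at r = 0.0907 and Rpl41, a very short large-subunit protein, at r = 0.392 with the median of the set over the 10 arrays. Rpl39, a short protein of the nascent-chain exit tunnel, read 304 on the wild-type unstimulated array and 179 to 241 on the other wild-type arrays, and 200 and 130 to 184 in Cd14-/- cells. A brighter probe set with Rpl39 and another symbol read 15418 without LPS and 13186 and 14030 with it in wild-type cells, and was higher by 0.21 in Cd14-/- than in wild-type cells under LPS, the opposite of the member probe set. Rpl39l, its testis-enriched paralogue, read 398 on the wild-type and 144 on the Cd14-/- unstimulated array, a difference of -1.46 ± 0.43 (limma, adjusted p = 1). Rpl7l1, a nucleolar relative of Rpl7, ran from 672 to 1449 and correlated at r = -0.45 with the median of the set over the 10 arrays. Over those arrays, 19 of the 47 genes had r above 0.9 with the set's median, of which they are part, where 0.417% of the genes outside the set did. Another 4 had r under 0, beside 48% of the genes outside the set.

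Between 48 h and 60 h of stimulation, the set was slightly lower at 60 h, with 40 of 47 log2 changes negative and a median of -0.12, against 0.05 over all genes; on unscaled and on quantile-normalized signals the medians were -0.02 and -0.02, with 29 of 47 negative in each. None passed in limma (1 unadjusted), with 0% of all genes called in either direction. The pairs differed: in the Cd14-/- LPS pair 41 of 47 genes were lower at 60 h by a median of -0.36, whereas in the wild-type LPS pair 34 were higher, by a median of 0.05.

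Genes of related pathways were compared as lists. Mitochondrial ribosomal proteins, which translate the mitochondrial genome, did not share the pattern: under LPS in wild-type cells 3 of 74 rose and 2 fell, with a median of 0.03, beside 7.69% and 8.24% of all genes, and the genotype difference under LPS had a median of -0.07 with 0 of 74 passing. Mrps28 fell by -1.27 ± 0.24 and Mrpl41 by -1.12 ± 0.22, while Mrpl9 rose by 1.04 ± 0.21 (limma, adjusted p = 0.0226, 0.0261 and 0.0265). Oxidative phosphorylation subunits had a median of -0.20 under LPS in wild-type cells, with 1 of 69 up and 3 down, beside 7.69% and 8.24% of all genes. Between genotypes under LPS their median was 0.15, with 56 of 69 positive and 1 called higher, beside 2.57% of all genes. Translation factors and other TOP mRNAs moved by amounts close to those of the ribosomal proteins. Their median was -0.27 under LPS in wild-type cells (16 of 20 negative) and 0.34 between genotypes under LPS (19 of 20 positive). Of the 20, 1 passed in the first, called higher beside 7.69% of all genes. In the second 0 passed, beside 2.57% of all genes called higher and 2.61% lower. The 1 was Hnrnpa1, an RNA-binding splicing factor, which rose by 1.37 ± 0.33 (limma, adjusted p = 0.0449).

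Among ribosome biogenesis factors, the nucleolar proteins that process ribosomal RNA, 9 of 53 fell and 2 rose under LPS in wild-type cells (median -0.31), beside 8.24% and 7.69% of all genes. In Cd14-/- cells 2 fell and 0 rose (median -0.46), beside 2.01% and 2.17% of all genes. Between genotypes under LPS the list had a median of -0.02, with 24 of 53 positive, and 1, Gnl3, was lower in Cd14-/- cells, by -0.94 (limma, adjusted p = 0.0358), beside 2.61% of all genes. Fbl, the methyltransferase fibrillarin, fell by -1.62 ± 0.19 in wild-type cells (limma, adjusted p = 0.00757), Nop58 by -1.51 ± 0.21 (0.0103) and Nop16 by -1.51 ± 0.23 (0.0126). With thapsigargin in Cd14-/- cells 6 of 53 were higher than with LPS alone and 0 lower (median 0.44), beside 3.43% and 3.2% of all genes, led by Nop14 (1.21 ± 0.18, limma, adjusted p = 0.0214), Gnl3 (1.18 ± 0.16, 0.0186) and Nolc1 (1.12 ± 0.23, 0.048). In wild-type cells the median was 0.32 and 0 of 53 passed (limma; 8 unadjusted).
Of 20 regulators of ribosome supply, 3 rose and 2 fell under LPS in wild-type cells, beside 7.69% and 8.24% of all genes. Ddit4, an inhibitor of mTORC1, rose by 3.82 ± 0.28 (limma, adjusted p = 0.00225). Myc, a transcription factor that drives ribosomal genes, fell by -2.87 ± 0.51 (0.0196) and Deptor, a component of mTOR complexes that restrains them, by -2.68 ± 0.56 (0.0308). Under LPS in Cd14-/- cells Ddit4 rose by 3.53 ± 0.28 (limma, adjusted p = 0.00669). It was the only one of the 20 that passed, beside 2.17% of all genes called higher and 2.01% lower. Among 13 cell division genes, 11 fell under LPS in each genotype, with medians of -4.13 and -2.77, beside 8.24% of all genes in wild-type and 2.01% in Cd14-/- cells. Of the 13, 6 were higher in Cd14-/- than in wild-type cells under LPS, beside 2.57% of all genes. Ube2c and Ccnb2 read below the signal floor on at least 1 wild-type LPS array, which limits the size of their change.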

How the data were processed

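RNA from 10 cultures was hybridised to Affymetrix arrays, 1 per condition. The deposited intensity values are linear MAS5 signals, per the submitters' processing notes (version and target signal: not given in the sources used here). Each array was scaled to a common 2% trimmed mean (deposited trimmed means 444 to 553), and a floor of 13.4 (pooled 25th percentile) was applied before taking log2. Of 22690 probe sets, 64 are controls, 20380 carry 1 symbol in the platform table, 691 several and 1619 none. A gene was represented by its probe set of highest mean and tested if above 99.2 (pooled median) on at least 2 arrays: 7474 of 12393 genes.

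One linear model per gene over all 10 arrays (6 genotype and treatment levels plus a term for 60 h against 48 h; 3 residual degrees of freedom, prior 2.95) was fitted in limma 3.58.1 under R 4.3.3, with eBayes and an intensity trend, and tested on simulated data. P-values are two-sided and adjusted by Benjamini-Hochberg over 7474 genes; the threshold was 0.05. A second limma model took the 5 genotype pairs of equal treatment and time as blocks. Arrays were compared as single samples, and their number limits the precision. Alternatives covered scaling, floor, filter, time term, variance trend, choice of probe set and leaving out arrays. Probe sets with several symbols were not tested as members.

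Named genes were 28 fixed by role (given where they have a member probe set), up to 5 per direction among those passing, the 3 brightest and 3 dimmest, 10 non-members most like the set's median, and up to 3 per other list among those passing. Members and lists were chosen with earlier results of these data known. Rps18, Rps25, Rpl12, Rpl6, Rpl37, Rpl27a, Rps2 and Rpl41, and probe sets outside the rule, were named after their values were seen.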

Additional observations from a re-analysis of the deposited data

How the results depend on the processing

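Under the alternatives run, the 10 called gene changes kept their direction; of 194 refits, 126 stayed past the threshold and 68 did not. Counts of genes that passed moved by over 1.5 times as follows. For LPS in wild-type cells (3 genes) the count was 1 without scaling, 1 without the filter, 5 with each probe set tested separately and 25 without both arrays low in 18S signal. For LPS plus thapsigargin against unstimulated cells it was 1 without the filter and 19 without both low-18S arrays in wild-type cells (3 genes), and in Cd14-/- cells (4 genes) 2 without scaling, 1 without the filter, 2 with the filter at the 75th percentile and 17 without both low-18S arrays; there the set's median turned to 0.04 on unscaled signals. For the genotypes under LPS (0 genes) it was 1 under quantile normalization, 1 without the time term and 11 without both low-18S arrays. Without those arrays the other counts of 0 became 8 for LPS in Cd14-/- cells, 6 and 6 for thapsigargin in wild-type and Cd14-/- cells, 9 for the genotypes under LPS plus thapsigargin and 3 for the difference of the thapsigargin response. Leaving out 1 array at a time gave 0 to 17 for LPS in wild-type cells, 0 to 11 in Cd14-/- cells, 0 to 38 for the genotypes under LPS, 0 to 18 for thapsigargin in Cd14-/- cells, 0 to 14 and 0 to 9 for LPS plus thapsigargin against unstimulated cells, 0 to 1 for time, and 0 to 16 and 0 to 15 for the differences of the LPS and thapsigargin responses between genotypes. The cause of these moves was not tested. Where Results give the counts over all genes beside the highest counts without arrays, those had risen steeply too. This held without both low-18S arrays for LPS in wild-type cells, the genotypes under LPS and thapsigargin in Cd14-/- cells. For the other comparisons without those arrays, counts over all genes are not given here. The counts of those comparisons cannot be read as a trait of ribosomal protein genes. Higher counts after leaving out arrays therefore do not by themselves set ribosomal protein genes apart from other genes. The range of the set's median over the arrays, 0.61, was 0.79 with the mean of all probe sets of a gene and 1.18 with probe sets without a suffix only. In that last setting the order changed as well, and the Cd14-/- LPS 48 h array had a median of 8.62. This lay below the Cd14-/- LPS 60 h array (8.92) and the unstimulated arrays (9.14 in wild-type and 9.25 in Cd14-/- cells). The fits with each probe set and without both low-18S arrays were chosen after seeing the data. The labels give no replicate numbers to pair by. The paired fit over the 5 matched genotype arrays of equal treatment and time, also chosen after seeing the data, called 0 of 47 genes with all pairs, without scaling, under quantile normalization, without both low-18S pairs and without each pair in turn. With no condition repeated, leaving out 1 array leaves a condition pair with a lone array that is assumed to vary like the others. Without the unstimulated array of a genotype, its comparisons with that array could not be fitted.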

Other observations

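A further 102 probe sets carry a ribosomal protein symbol beside other symbols and lie outside the set; 30 ribosomal protein genes are found only on them. Of the 93 tested, 83 had a negative change under LPS in wild-type cells, with a median of -0.27, beside 3846 of all 7474 genes and a median of -0.03. Under LPS 89 were higher in Cd14-/- than in wild-type cells, with a median of 0.42, beside 55.4% of all genes and a median of 0.08. Under LPS in wild-type cells 5 of the 93 passed, all lower, beside 8.24% of all genes called lower. These 5 belong to genes that also have a brighter probe set with a smaller change. A dim Rpl31 probe set read 920 without LPS in wild-type cells and 156 and 191 with it, a change of -2.41 (limma, adjusted p = 0.00621), while the brightest Rpl31 probe set changed by -0.30. A dim Rpl15 probe set read 1200, then 264 and 381, a change of -1.92 (adjusted p = 0.00626), while the brighter one changed by -0.14. For Rpl3 the values were -2.004 (adjusted p = 0.0124) and -0.47, for Rpl5, which binds Mdm2 together with Rpl11, -2.94 (0.0194) and -0.36, and for Rpl17 -1.402 (0.0416) and -0.19. The dim Rpl31 and Rpl15 probe sets were also higher in Cd14-/- than in wild-type cells under LPS, by 1.59 and 1.49 (adjusted p = 0.0253 and 0.0177), and lower with thapsigargin in Cd14-/- cells, by -1.54 and -1.10 (0.0199 and 0.0241). A dim Rpl37 probe set, shared with its retrogene Rpl37rt, was the 1 that was higher with thapsigargin in Cd14-/- cells, by 1.54 (adjusted p = 0.023). What these dim probe sets measure was not tested. Bright probe sets of Rplp1, Rpl10, Rpl23 and Rpl26 changed by -0.13, -0.12, -0.22 and -0.10 under LPS in wild-type cells.

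Over the 10 arrays, the genes outside the set whose log2 signal was most like the set's median were Zfp106 (Pearson r = 0.963), Sub1 (0.955), Hat1 (0.944), Prkra (0.941), Mical1 (0.939), Atp5g2 (0.932), Rmnd5a (0.928), Gsto1 (0.927), Epb41l3 (0.926) and Rgs3 (0.925). All 10 of these genes read highest on the Cd14-/- LPS 48 h array, and the values are a description with no test. Epb41l3, for example, read 492 on that array and 131 to 406 elsewhere.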
